A study of Mus musculus with 3 samples.

Results

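The lysosome breaks down proteins, lipids and sugar chains with acid hydrolases. Its lumen is kept acidic by the V-ATPase, a proton pump built of a cytosolic V1 sector that hydrolyses ATP and a membrane V0 sector that carries protons. Its limiting membrane holds glycoproteins, channels and lipid transporters. Melanosomes, the pigment organelles of melanocytes, are lysosome-related organelles, and Mitf, the transcription factor that directs melanocyte development, belongs to the same family as Tfeb and Tfe3, which activate lysosomal genes.

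The genes described here are 23 named lysosomal genes together with every gene whose symbol begins with Atp6v or Atp6ap. They took up 44 of the 12852 rows of the deposited expression table, 18 for hydrolases and their lumenal partners, 6 for membrane proteins and 20 for the proton pump. All 23 named symbols were found, and Glb1 stood on 2 rows with different gene IDs. The second of these, ENSMUSG00000079260, is named Tmppe in the newer GENCODE annotation, where it overlaps Glb1, so it is kept as a member by its symbol but is not counted as beta-galactosidase in the text. In GENCODE both Glb1 rows, Ctsd, Ctsl, Scarb2, Atp6v1b2 and Atp6v0a4 are marked as overlapping another gene, and since the counting's use of strand is not given, their values are uncertain to that extent.

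RNA was sequenced from B16F10, a mouse melanoma line that makes pigment, whose cells had received siRNA. There were 2 libraries of Med23 knockdown cells, titled siMed23A and siMed23B, and 1 library of control cells, titled siCtrl and labelled wild type. Med23 is a subunit of Mediator, the complex that links transcription factors to RNA polymerase II, and the title of the series asks whether it ties pigmentation to DNA repair by way of Mitf. Whether A and B stand for separate siRNAs or for repeats of one, and whether cultures were separate, is not in the labels, so the spread between these libraries may be technical. Since the header of the table runs the knockdown names together, the libraries are told apart here by column order alone, as the first and the second.

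Values are RPKM, reads divided by transcript length and by library size, made equal in distribution over the 3 libraries before deposit, so read depth is unknown and no counting error can be given. A change in total RNA cannot be seen in such values, and in bulk RNA fewer cells of a type and less RNA per cell cannot be told apart. Med23 itself stood at 1.65 and 1.61 RPKM in the knockdown libraries, against 5.23 RPKM in the control, and Mitf at 4.23 and 3.51 RPKM, against 9.00 RPKM. The cells carried all 10 melanocyte markers examined, such as Tyrp1 with 882 RPKM in each knockdown library and 2306 RPKM in the control. Apart from Cd68, the markers of other cells in the table were at most 1.19 RPKM in any library. Of 12 macrophage markers, 4 were in the table, with summed levels of 11.6 and 11.9 RPKM in the knockdown libraries and 18.2 RPKM in the control, nearly all from Cd68, a lysosomal glycoprotein. Fibroblast markers, 2 of 6 in the table, summed to 0.650 and 0.924 RPKM after knockdown and 0.340 RPKM in the control, the endothelial list had 1 of 5 in the table, at most 0.0390 RPKM, and the epithelial list 0 of 6.

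Differences are log2 ratios of knockdown over control on the log2(RPKM + 1) scale, which understates the change of low genes, for the 9722 genes whose mean reached 1 RPKM. They were tested with limma, with Benjamini-Hochberg adjustment over all 9722 genes and a threshold of 0.05. The spread in that test comes from the 2 knockdown libraries and a prior over all genes, and the lone control is taken to vary like them, which these data cannot check. Of the 44 members, 41 passed the filter, and the other 3, Atp6v0a4, Atp6v1b1 and Atp6v1g2, were under 1 RPKM in every library. After knockdown 18 members fell and 9 rose, while 14 were not called, so 65.9% were called, where 50.3% of all tested genes were called. The share that fell was 43.9%, against 24.0% of all tested genes, and the share that rose was 22.0%, against 26.3%. The members' median log2 ratio was -0.13, and that of all tested genes was 0.01. By role the median was 0.13 for hydrolases, 0.06 for membrane proteins and -0.32 for the proton pump. After a correction for transcript length and GC content these medians were -0.0043, 0.08 and -0.40, so the sign of the hydrolase median turned. With the control taken to vary 3 times as much as a knockdown library, limma called 0 members lower and 1, Ctsl, higher. Of all tested genes 0.792% and 1.21% were called so. At an unadjusted limma p under 0.05, 10 of the 41 were then lower and 2 higher, where 912 and 1031 of all 9722 tested genes were. With 2 times the control spread, limma called 9 members lower and 2 higher after adjustment (7.03% and 8.33% of all genes).

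**Figure D1:**
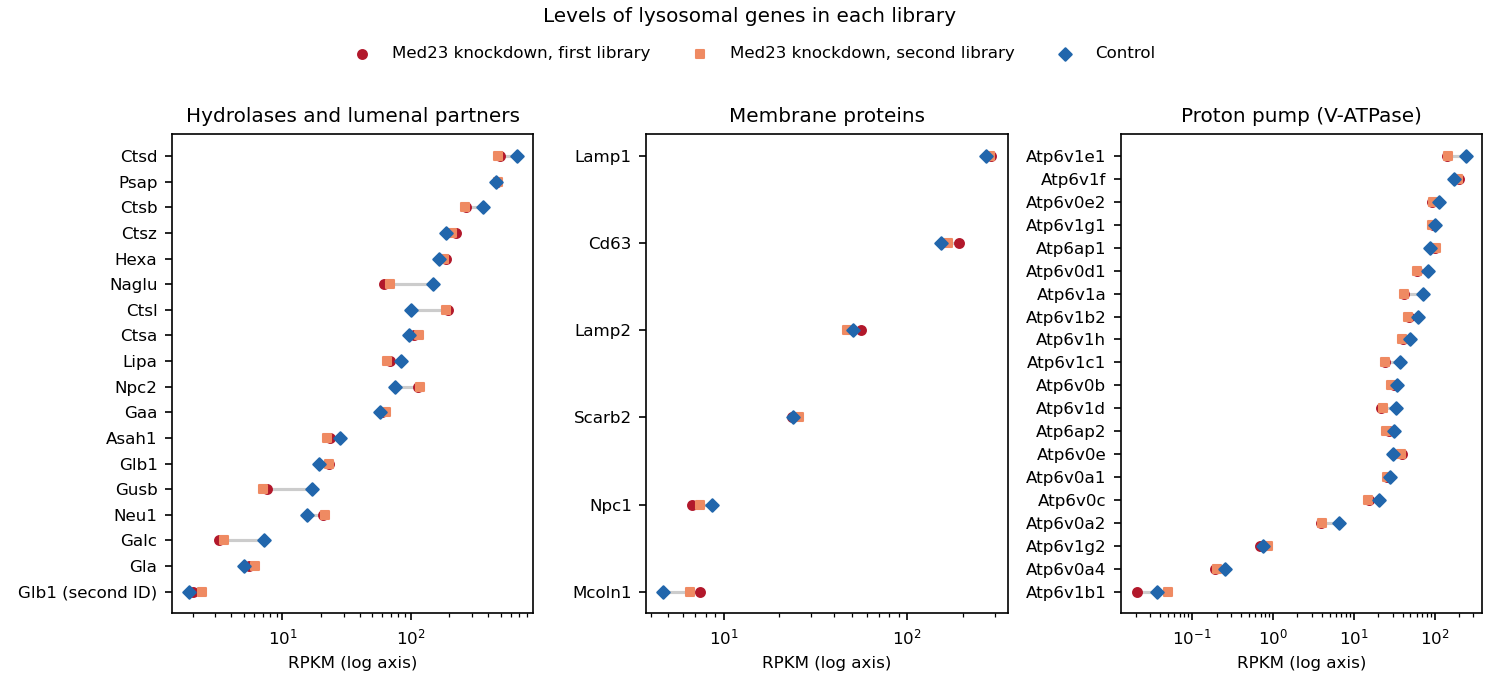
RPKM on a log axis (horizontal) of each of the 44 members in each knockdown library and in the control, in panels by role and ordered by the control level. Ctsd, at 491 and 477 RPKM after knockdown and 670 RPKM in the control, is the most abundant member in the control, and Naglu, Gusb and Galc show wide gaps to the left of the control while Ctsl shows one to the right.

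Hydrolases were called in both directions. Limma's test called 7 of the 18 rows lower (38.9%, against 24.0% of all tested genes) and 5 higher (27.8%, near the 26.3% of all tested genes), leaving 6 uncalled (5 of 17 without the second Glb1 row). The falls were Naglu, Gusb, Galc, Ctsd, Ctsb, Lipa and Asah1, and the rises were Ctsl, Npc2, Neu1, Ctsz and Hexa. Both ends were wide, with log2 ratios between -1.17 and 0.93. Summed over the hydrolases, the level was 2334 and 2316 RPKM in the knockdown libraries and 2501 RPKM in the control, so the sum moved little while its parts moved apart.

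Among the hydrolases Naglu and Gusb had the lowest log2 ratios. Naglu, the N-acetylglucosaminidase of heparan sulfate breakdown, had 61.8 and 68.6 RPKM in the knockdown libraries, against 148 RPKM in the control. Both knockdown values lay under 50% of the control value, and the log2 ratio was -1.17 (SE 0.08, limma adjusted p = 0.000595). Gusb, beta-glucuronidase, which removes glucuronic acid from the same kind of chain, had 7.61 and 7.00 RPKM after knockdown, against 16.9 RPKM in the control (log2 ratio -1.11, SE 0.10, limma adjusted p = 0.00131). These were the only members lower by at least 2-fold in both knockdown libraries, where 2.83% of all tested genes were, and 0 members were higher by that much, where 2.57% of all tested genes were.

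Galc, which splits galactosylceramide, the lipid of myelin, had 3.18 and 3.52 RPKM after knockdown, against 7.14 RPKM in the control. Its mean stood at 47.0% of the control level, but with the pseudocount of 1 its log2 ratio was -0.90 (SE 0.12, limma adjusted p = 0.00304), short of 2-fold on that scale. Other enzymes of glycolipid and glycogen breakdown were not called lower. Gla, alpha-galactosidase A, had 5.46 and 6.07 RPKM after knockdown and 5.02 RPKM in the control, and Gaa, the acid alpha-glucosidase that degrades glycogen, had 59.7 and 64.0 RPKM after knockdown and 57.5 RPKM in the control. Neither passed limma's test, with 95% intervals of the log2 ratio from -0.12 to 0.46 for Gla and from -0.08 to 0.29 for Gaa. Glb1, beta-galactosidase, lay near the threshold, with 22.9 RPKM in each knockdown library against 19.2 RPKM in the control (limma adjusted p = 0.0505). The second Glb1 row had 2.02 and 2.36 RPKM after knockdown and 1.85 RPKM in the control, and did not pass. Hexa, the alpha chain of beta-hexosaminidase, had 188 and 182 RPKM after knockdown, against 165 RPKM in the control, a small rise (log2 ratio 0.16, limma adjusted p = 0.0467) that did not pass in 6 of the 8 other settings tried.

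Neu1, the sialidase, and Ctsa, the protective protein that holds Neu1 and Glb1 in one complex, were both above the control in both knockdown libraries. Neu1 had 20.7 and 21.6 RPKM after knockdown, against 15.5 RPKM in the control (log2 ratio 0.42, SE 0.09, limma adjusted p = 0.0117). Ctsa had 106 and 116 RPKM after knockdown, against 96.1 RPKM in the control, and did not pass (limma adjusted p = 0.0622). After the correction for length and GC content it was called higher (log2 ratio 0.23, limma adjusted p = 0.0230).

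The cathepsins, the proteases of the lysosome, went in both directions. Ctsl, a cysteine endopeptidase, had 195 and 190 RPKM after knockdown, against 101 RPKM in the control. The knockdown mean was 1.91-fold the control, the largest rise among the members (log2 ratio 0.93, SE 0.05, limma adjusted p = 0.000349), and Ctsl was the one member that passed in every one of the 8 other settings in which it was tested. Ctsd, the aspartic protease, was the most abundant member in the control and had 491 and 477 RPKM after knockdown, against 670 RPKM in the control (log2 ratio -0.47, SE 0.04, limma adjusted p = 0.000990). Ctsb, a cysteine protease with both endopeptidase and dipeptidase activity, had 269 and 265 RPKM after knockdown, against 367 RPKM in the control, a fall of nearly the same size (log2 ratio -0.46). By their means Ctsb stood 1.39-fold above Ctsl after knockdown, against 3.64-fold in the control. Ctsz, a carboxypeptidase, had 224 and 208 RPKM after knockdown, against 187 RPKM in the control (limma adjusted p = 0.0393). After a correction for transcript length and GC content its log2 ratio was -0.026, and its call was lost in 6 of the 8 other settings.

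Lipid handling in the lumen also divided. Npc2, which carries cholesterol out of the lumen, had 113 and 117 RPKM after knockdown, against 75.8 RPKM in the control (log2 ratio 0.60, SE 0.06, limma adjusted p = 0.00153). Lipa, the acid lipase that frees cholesterol from its esters, had 68.3 and 65.8 RPKM after knockdown, against 83.2 RPKM in the control (log2 ratio -0.31, limma adjusted p = 0.0127). Asah1, acid ceramidase, had 23.4 and 22.0 RPKM after knockdown, against 28.0 RPKM in the control (log2 ratio -0.29, limma adjusted p = 0.0348). Psap, the precursor of the saposins that present sphingolipids to their hydrolases, differed least among the hydrolase rows, with 472 and 479 RPKM after knockdown and 458 RPKM in the control. It did not pass, and its 95% interval ran from -0.04 to 0.15.

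**Figure D2:**
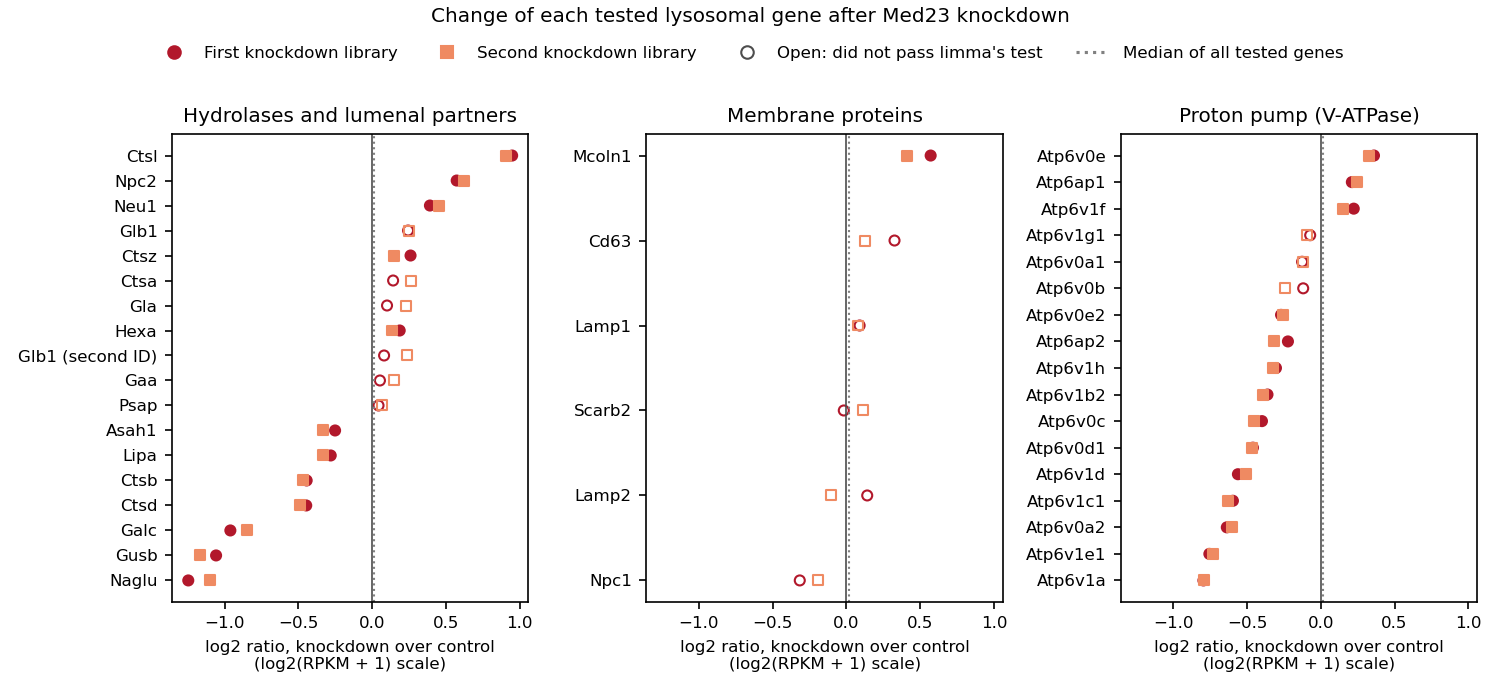
Log2 ratio of each knockdown library over the control (horizontal, log2(RPKM + 1) scale) for the 41 tested members, in panels by role, with filled points where limma's test was passed and a dotted line at the median of all tested genes (0.01). Most proton pump genes lie left of 0, with Atp6v0e, Atp6ap1 and Atp6v1f to the right, whereas hydrolases reach from -1.17 for Naglu to 0.93 for Ctsl and 5 of the 6 membrane genes are open.

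Of the membrane proteins, limma's test called 1 of 6 higher and 0 lower. The called share was 16.7%, where 50.3% of all tested genes were called (26.3% higher and 24.0% lower). At an unadjusted limma p under 0.05, 2 of the 6 were higher and 0 lower, where 2955 and 2700 of all 9722 tested genes were. Mcoln1, the calcium channel of the lysosomal membrane, had 7.41 and 6.53 RPKM after knockdown, against 4.66 RPKM in the control (log2 ratio 0.49, SE 0.12, limma adjusted p = 0.0205). It was the least abundant of the 6 in the control. Lamp1, the most abundant, had 287 and 284 RPKM after knockdown and 269 RPKM in the control, with a 95% interval of the log2 ratio from -0.03 to 0.19. Lamp2, the other major membrane glycoprotein and the receptor of chaperone-mediated autophagy, had 55.6 and 46.8 RPKM after knockdown and 50.4 RPKM in the control, so the knockdown values lay on either side of the control. Scarb2, which delivers glucocerebrosidase to the lysosome, had 23.6 and 25.9 RPKM after knockdown and 23.9 RPKM in the control, again on either side. Cd63, a tetraspanin that also sorts Pmel in melanosomes, had 191 and 166 RPKM after knockdown and 152 RPKM in the control, and did not pass (limma adjusted p = 0.0838). Npc1, the membrane partner of Npc2 in cholesterol export, had 6.74 and 7.43 RPKM after knockdown and 8.64 RPKM in the control (limma adjusted p = 0.103). Npc2 passed upward, and the 95% interval of Npc1, from -0.53 to 0.02, lay below that of Npc2, from 0.45 to 0.75.

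Most genes of the proton pump fell. Of 17 genes tested, 11 fell and 3 rose, with 3 uncalled, so 64.7% fell, where 24.0% of all tested genes did. The share that rose was 17.6%, against 26.3% of all tested genes. The summed level of the 20 pump genes was 1012 and 999 RPKM in the knockdown libraries, against 1202 RPKM in the control. No pump gene reached 2-fold in both libraries, where 2.83% of all tested genes were lower and 2.57% higher by that much. At 1.5-fold in both, 4 of the 17 were lower and 0 higher, where 970 and 1016 of all 9722 tested genes were.

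In the V1 sector 6 of 8 tested genes fell (75.0%, against 24.0% of all tested genes) and 1 rose (12.5%, against 26.3%), with a median log2 ratio of -0.46. Atp6v1a, the catalytic subunit A, had 41.1 and 41.2 RPKM after knockdown, against 72.0 RPKM in the control (log2 ratio -0.79, SE 0.07, limma adjusted p = 0.000971). Atp6v1b2, the B subunit that alternates with A in the ATP-hydrolysing ring, had 48.2 and 47.2 RPKM after knockdown, against 62.2 RPKM in the control (log2 ratio -0.38, limma adjusted p = 0.00775). In the control A stood above B2, and in both knockdown libraries it stood below B2.

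The stalks of V1 differed from one another. Atp6v1e1, of the peripheral stalks that hold the ring in place, was the most abundant pump gene in the control, and had 142 and 145 RPKM after knockdown, against 240 RPKM in the control (log2 ratio -0.74, SE 0.05, limma adjusted p = 0.000570). Atp6v1g1, whose product pairs with E in those stalks, had 94.9 and 93.5 RPKM after knockdown and 99.8 RPKM in the control, and did not pass (95% interval of the log2 ratio from -0.23 to 0.06). That interval lay above the one of Atp6v1e1, from -0.87 to -0.62. After the correction for length and GC content Atp6v1g1 was called lower (log2 ratio -0.34, limma adjusted p = 0.00311), and Atp6v1e1 had a log2 ratio of -0.97. Atp6v1c1 and Atp6v1h take part in the regulated joining of V1 to V0, and both fell. Atp6v1c1 had 24.5 and 24.0 RPKM after knockdown, against 37.6 RPKM in the control (log2 ratio -0.61). Atp6v1h had 40.2 and 39.6 RPKM after knockdown, against 49.9 RPKM in the control (log2 ratio -0.32). The central rotor was also unequal. Atp6v1d had 21.9 and 22.8 RPKM after knockdown, against 32.8 RPKM in the control (log2 ratio -0.53, limma adjusted p = 0.00478). Its partner in the rotor, Atp6v1f, had 202 and 191 RPKM after knockdown, against 173 RPKM in the control (log2 ratio 0.19, limma adjusted p = 0.0386). The direction of Atp6v1f turned to -0.15 after correction for length and GC content, and its call was lost in 6 of the 8 other settings. It had the shortest transcript of the tested pump genes, 806 bases in GENCODE.

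**Figure D3:**
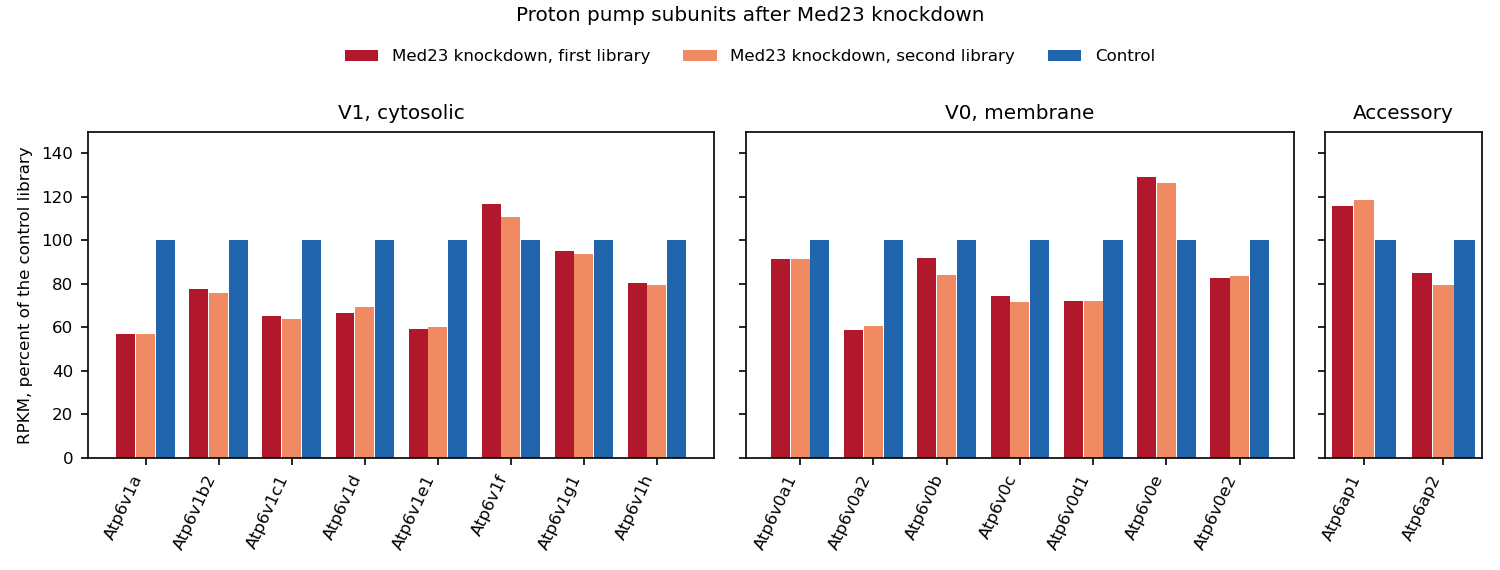
RPKM of the 17 tested proton pump genes in each knockdown library as a percentage of the control library (vertical, bars from 0; control set at 100), grouped as V1, V0 and accessory. Atp6v1a and Atp6v1e1 stand at 57.1% and 59.6% of the control on average, and Atp6v0e at 128%.

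In the V0 sector 4 of 7 tested genes fell (57.1%, against 24.0% of all tested genes) and 1 rose (14.3%, against 26.3%), leaving 2 uncalled, with a median log2 ratio of -0.26. Atp6v0d1, which links the rotor to the membrane ring, had 60.0 and 59.7 RPKM after knockdown, against 82.9 RPKM in the control (log2 ratio -0.46, SE 0.06, limma adjusted p = 0.00343). Atp6v0c, the proteolipid that makes up most of the proton-carrying ring, had 15.3 and 14.7 RPKM after knockdown, against 20.5 RPKM in the control (log2 ratio -0.43, limma adjusted p = 0.0122). GENCODE lists processed pseudogenes of Atp6v0c, so its level is uncertain if reads were split between copies. Atp6v0b, the other proteolipid of the ring, had 31.0 and 28.4 RPKM after knockdown and 33.8 RPKM in the control, and did not pass (limma adjusted p = 0.136). After the correction for length and GC content it was called lower (log2 ratio -0.49, limma adjusted p = 0.00145).

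Subunits a and e exist as paralogs, and in both the paralogs moved unequally. Subunit a holds the proton half-channels and directs the pump to its membrane. Atp6v0a2 had 3.90 and 4.02 RPKM after knockdown, against 6.62 RPKM in the control (log2 ratio -0.62, SE 0.11, limma adjusted p = 0.00727). Atp6v0a1, the main a paralog here, had 25.8 RPKM in each knockdown library and 28.2 RPKM in the control, and did not pass (95% interval of the log2 ratio from -0.32 to 0.07). Atp6v0a4, the kidney paralog, was at most 0.256 RPKM in any library. The lysosomal paralog a3 is encoded by Tcirg1, which the symbol rule leaves out. It had 16.9 and 17.2 RPKM after knockdown and 18.2 RPKM in the control, and did not pass (limma adjusted p = 0.421). Among the 4 genes of subunit a, Atp6v0a2 made up 8.34% and 8.51% of the summed RPKM after knockdown and 12.4% in the control.

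Subunit e, a small membrane protein needed for assembly, showed opposite changes. Atp6v0e had 39.2 and 38.3 RPKM after knockdown, against 30.3 RPKM in the control (log2 ratio 0.34, SE 0.07, limma adjusted p = 0.0134). Atp6v0e2 had 93.5 and 94.2 RPKM after knockdown, against 113 RPKM in the control (log2 ratio -0.26, SE 0.06, limma adjusted p = 0.0135). The share of Atp6v0e in their sum was 29.5% and 28.9% after knockdown and 21.2% in the control. In subunits B and G a single paralog made up nearly all of the level. Atp6v1b2 held over 99% of the B signal in every library, with Atp6v1b1 at most 0.0497 RPKM, and Atp6v1g1 held over 99% of the G signal, with Atp6v1g2 at most 0.863 RPKM.

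The accessory subunits moved apart. Atp6ap1, which takes part in assembly of V0, had 102 and 104 RPKM after knockdown, against 87.7 RPKM in the control (log2 ratio 0.23, limma adjusted p = 0.0236). Atp6ap2, the (pro)renin receptor, had 26.8 and 25.0 RPKM after knockdown, against 31.4 RPKM in the control (log2 ratio -0.27, limma adjusted p = 0.0434). Both calls were lost in 4 of the 8 other settings. Across all tested genes with an annotated transcript, log2 ratios fell with transcript length (Spearman -0.38, n = 9614 genes, which are not independent), and across the 17 pump genes the coefficient was -0.31. After the correction for length and GC content the pump's median log2 ratio was -0.40, against a median of 0.03 over all tested genes. In that setting limma called 13 of 17 pump genes lower and 1 higher, where 2374 and 2639 of all 9722 tested genes were.

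Other lysosomal genes, taken from lists drawn up by function, are given for comparison. Of 43 other hydrolases and lumenal proteins tested, 18 rose (41.9%, against 26.3% of all tested genes) and 10 fell (23.3%, near the 24.0% of all tested genes), with a median log2 ratio of 0.10. Ids, iduronate 2-sulfatase of heparan and dermatan sulfate breakdown, had 2.02 and 2.40 RPKM after knockdown, against 11.3 RPKM in the control (log2 ratio -1.94, limma adjusted p = 0.000529). Arsg, a sulfatase, had 1.30 and 1.28 RPKM after knockdown, against 3.66 RPKM in the control. The cathepsins Ctso and Ctsf rose, to 4.20 and 3.97 RPKM for Ctso, against 1.38 RPKM in the control, and to 5.30 and 6.06 RPKM for Ctsf, against 2.14 RPKM in the control.

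Of 36 other membrane proteins tested, 10 rose and 10 fell, with a median of 0.08. Each share was 27.8%, near the 26.3% of all tested genes that rose and the 24.0% that fell. Hgsnat, the acetyltransferase of heparan sulfate breakdown, had 35.0 and 36.7 RPKM after knockdown, against 95.7 RPKM in the control (log2 ratio -1.39, limma adjusted p = 0.000283). Tmem9b fell to 9.40 and 10.9 RPKM, against 26.7 RPKM in the control, while the tetraspanin Cd82 rose to 31.2 and 30.6 RPKM, against 13.6 RPKM, and Tmem63a to 19.4 and 19.2 RPKM, against 9.82 RPKM in the control.

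For sorting to and fusion with the lysosome, 7 of 31 tested genes rose (22.6%, against 26.3% of all tested genes) and 12 fell (38.7%, against 24.0%), with a median of -0.16. Gnptab, which encodes the phosphotransferase chains that mark hydrolases with mannose 6-phosphate, had 1.83 and 1.92 RPKM after knockdown, against 4.52 RPKM in the control (log2 ratio -0.94, limma adjusted p = 0.00251). Stx8, a fusion SNARE, had 12.9 and 12.8 RPKM after knockdown, against 7.09 RPKM in the control. Bloc1s1 rose to 15.2 and 15.1 RPKM, against 8.74 RPKM, and Plekhm1, an adaptor of Rab7, fell to 3.58 and 3.92 RPKM, against 7.03 RPKM in the control.

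Of 23 tested genes of mTORC1, the nutrient-sensing kinase complex that is recruited to the lysosome, and its regulators, 3 rose (13.04%, against 26.3% of all tested genes) and 10 fell (43.5%, against 24.0%), with a median of -0.22. Mios, a subunit of the GATOR complex, had 1.06 and 1.08 RPKM after knockdown, against 3.12 RPKM in the control, and the leucine sensor Sesn2 had 2.78 and 2.84 RPKM, against 6.32 RPKM. Sesn1 and Fnip2 also fell, with log2 ratios of -0.83 and -0.61. Of the factors of the Mitf family, Mitf was the only one matched in the table, and its log2 ratio was -1.04 (limma adjusted p = 0.00297).

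**Figure D4:**
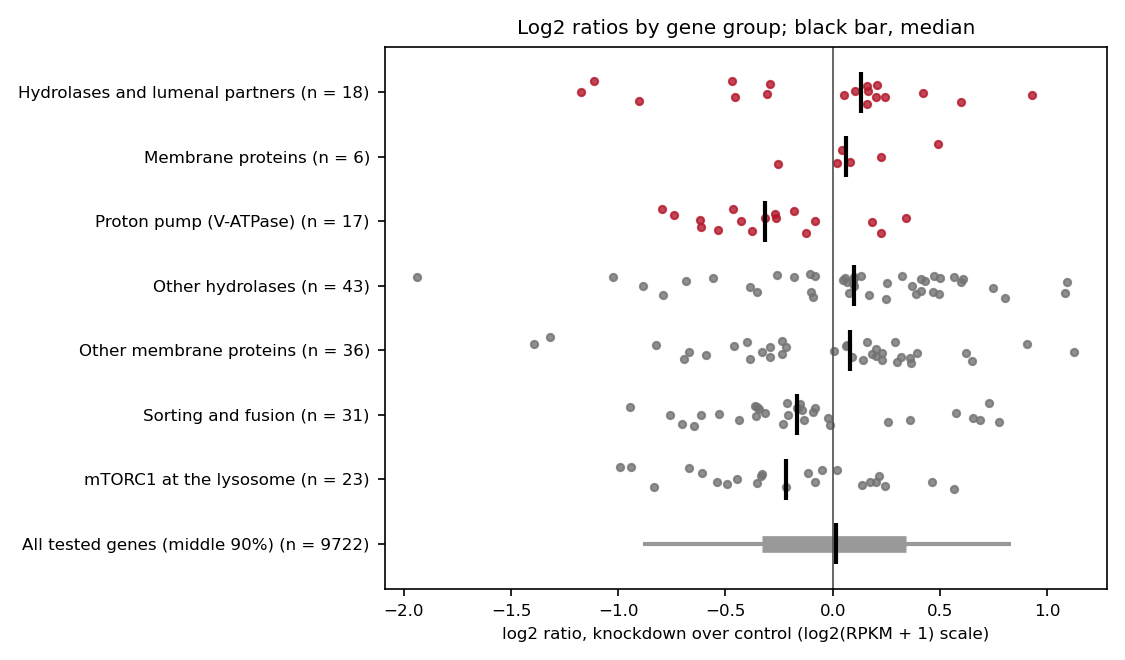
Log2 ratio of knockdown over control (horizontal, log2(RPKM + 1) scale) of each tested gene by group, with members in red, the other lysosomal lists in grey, a black bar at each median, and for all 9722 tested genes the middle 50% (thick bar, -0.33 to 0.34) and middle 90% (thin bar, -0.89 to 0.83). The proton pump has the lowest median, -0.32, and the hydrolases of both lists spread to both sides of 0.

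Promoters of lysosomal genes are known for E-boxes bound by the Mitf family, often in the longer palindrome called the CLEAR element. RefSeq promoter windows, 250 bases before to 50 after a start on build GRCm38.p6, were matched for 35 of the 43 member symbols. The E-box hexamer CACGTG, which reads the same on both strands, was present in windows of 13 of 35 members (37.1%), where 12.4% of the tested symbols with a window held it and 7.15% of all 32851 windows did. The 8 bases GTCACGTG, on either strand, were found in 9 members (25.7%), against 5.45% of tested symbols, and every such match holds a CACGTG. The full CLEAR element, searched only as the exact letters GTCACGTG followed by AC, was found in 0 of the 35, against 0.902% of tested symbols. Sites that differ from those letters were not counted, so looser forms of the element are not covered. The related hexamer CATGTG, on either strand, was in 5 members (14.3%), against 9.51% of tested symbols and 14.15% of all 32851 windows. These windows were not matched for base composition, and a match does not show binding.

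Members holding CACGTG were found on both sides. Of tested genes with a window they were 4 of 12 that fell, 3 of 9 that rose and 6 of 11 that did not pass. The 30 bases around the hexamer, 5′ to 3′ on the gene's own strand, are shown for the 7 called genes with the hexamer in capitals, since the same letters are in the windows of genes that fell and of genes that rose. For Ctsd and Mcoln1, with 2 hexamers each, the one nearer to the start is shown.
Naglu, fell: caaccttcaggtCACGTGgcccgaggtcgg
Atp6v1a, fell: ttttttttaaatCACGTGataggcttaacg
Ctsd, fell: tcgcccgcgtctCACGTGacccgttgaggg
Atp6v0d1, fell: ccctactgcggtCACGTGagacgcggtgcg
Ctsl, rose: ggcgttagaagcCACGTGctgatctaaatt
Mcoln1, rose: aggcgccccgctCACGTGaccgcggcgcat
Atp6v0e, rose: tagcgcgccgatCACGTGagcctctgttga
These windows lie at chr11:101070009-101070038 (plus strand), chr16:44139373-44139402 (minus), chr7:142387908-142387937 (minus), chr8:105566050-105566079 (minus), chr13:64370739-64370768 (minus), chr8:3500462-3500491 (plus) and chr17:26676387-26676416 (plus). The hexamer begins 73 bases before the RefSeq start in Naglu, 131 in Atp6v1a, 98 in Ctsd, 3 in Atp6v0d1, 236 in Ctsl and 45 in Mcoln1, and 3 bases past it in Atp6v0e. Lamp1, which did not pass limma's test, held 4 copies, the most of any member, within the 70 bases before its start (chr8:13159091-13159160, plus strand), again with the hexamers in capitals.
Lamp1: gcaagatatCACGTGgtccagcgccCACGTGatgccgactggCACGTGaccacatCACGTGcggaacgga

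**Figure D5:**
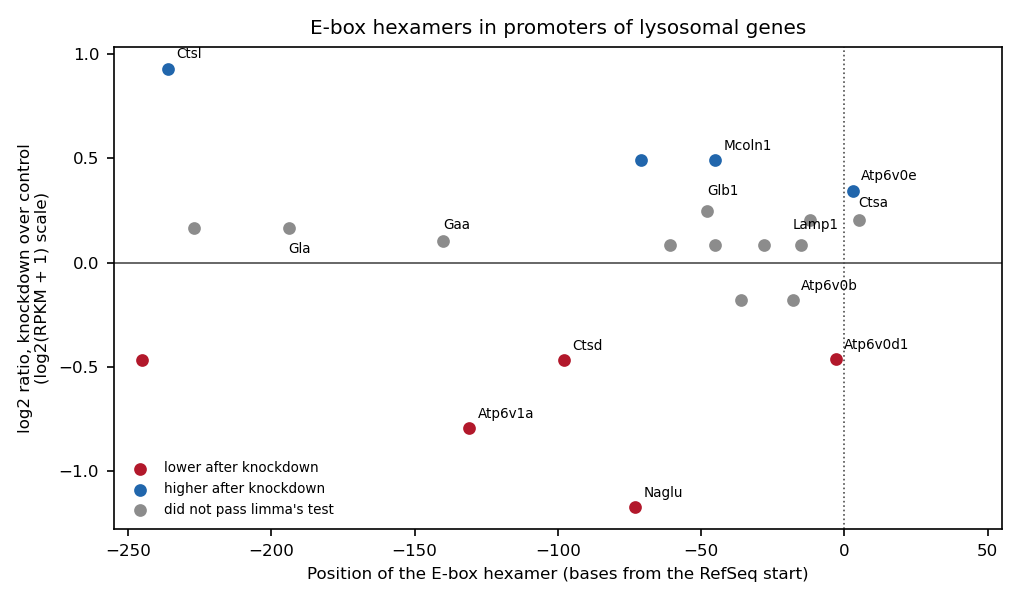
Position of each CACGTG hexamer in the matched promoter windows (horizontal, bases from the RefSeq start, negative before it) against the gene's log2 ratio of knockdown over control (vertical, log2(RPKM + 1) scale), coloured by limma's call. The 13 genes lie on both sides of 0, from -1.17 for Naglu to 0.93 for Ctsl, and the 4 hexamers of Lamp1 lie between 61 and 15 bases before its start.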

How the data were processed

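RNA-seq was made from total RNA of B16F10 cells, 2 Med23 knockdown libraries and 1 control library. The deposited values are RPKM computed by the authors, in 1 table with all 3 columns used. CASAVA 1.4, TopHat, Cufflinks and the build mm9 are listed, per the submitters' processing notes, without their roles, and the annotation, gene filter and strand setting are not given in the sources used here. After sorting, 95.3% of positions were equal in the 3 columns (relative difference under 1e-09; largest 0.682%), so the columns had been quantile normalized. Depth is unknown, and the spread of abundant genes may be understated. Knockdown columns were assigned to the group.

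Values were fitted as log2(RPKM + 1) with limma 3.58.1 in R 4.3.3 (intensity trend, mean of at least 1 RPKM, 1 residual and 4.37 prior degrees of freedom, Benjamini-Hochberg adjustment over all 9722 genes), a step also tested on simulated data. The simulated control had the same spread as the simulated knockdown libraries, so the simulation cannot check whether the real control varies like them. Each of 8 other settings was tried, namely a 0.1 pseudocount, all genes unfiltered, a 5 RPKM filter, recentred ratios, no trend, a control SD of 2 times, one of 3 times, and a loess correction for length and GC content (GENCODE M21, longest transcript, all 44 members matched). Genes changed past a fold limit in both libraries were counted without a test. Promoters are from RefSeq on GRCm38.p6, another build than mm9. Members and lists were chosen with earlier results of these data known. A gene of the listed groups is not reported here by name. Named are Med23, Mitf, all members and up to 4 genes of each other list by the smaller of the 2 libraries' changes. Tcirg1 is named as a paralog of a pump subunit, and Sgsh, Idua and the markers Cd68 and Tyrp1 were chosen after their values were seen. Python 3.11.15, pandas 2.3.3, numpy 2.4.6, scipy 1.17.1 and matplotlib 3.10.9 were used.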

Additional observations from a re-analysis of the deposited data

How the results depend on the processing

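No paired analysis was possible because the control has 1 library and no replicate number, and the replicate block was not fitted. With either knockdown library left out, which gives a value with no test, none of the 27 called members changed direction. This was fixed in advance, since a member with knockdown libraries on opposite sides of the control could not be called. The counts of members past 2-fold stayed at 2 lower and 0 higher. Both values share the same control, so they do not bear on how much it varies. Without the control no comparison is left.

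The calls rest on how much the lone control varies. With a control SD of 2 times that of a knockdown library, all tested genes gave 683 lower and 810 higher, the members 9 and 2, the hydrolases 5 and 2, the membrane proteins 0 and 0, the proton pump 4 and 0, and the other lysosomal lists 14 and 10. With 3 times, all tested genes gave 77 lower and 118 higher, the members 0 and 1, the hydrolases 0 and 1, the membrane proteins 0 and 0, the proton pump 0 and 0, and the other lists 1 and 0. At an unadjusted p under 0.05 limma then gave 912 lower and 1031 higher of all 9722 tested genes. It gave 5 lower and 2 higher of 18 hydrolases and 0 and 0 of 6 membrane proteins. Of 17 pump genes it gave 5 and 0, and of 133 genes of the other lists 18 and 14. With 2 times, the unadjusted counts were 1608 lower and 1846 higher of all tested genes. Limma then gave 6 lower and 3 higher of 18 hydrolases, 0 and 0 of 6 membrane proteins, and 10 and 1 of 17 pump genes. Of 133 genes of the other lists it gave 26 and 26. With 3 times, the lowest adjusted p among the pump genes was 0.0616, for Atp6v1e1 by limma.

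Smaller shifts came from other settings, and their cause was not tested. Without an intensity trend 5 of 41 members were called higher, where 2475 of all 9722 tested genes were. Of the 5, 3 were hydrolases and 1 a pump gene. Hydrolases called higher were also 3 of 18 without a filter and 3 of 18 with recentred ratios, where Hexa and Ctsz were lost. In those settings 2509 of all 12852 and 2501 of all 9722 tested genes were called higher. With the 5 RPKM filter 1494 genes were called lower, of fewer tested (5979). At a 1.5-fold limit 7 members were lower and 1 higher in both libraries, where 970 and 1016 of all 9722 tested genes were. With the length and GC correction 1 member was 2-fold higher in both. Of 17 pump genes 1 was then called higher, where 2639 of all 9722 tested genes were. The log2 ratio turned to -0.021 for Psap, -0.026 for Ctsz, -0.020 for Lamp1, -0.036 for Cd63 and -0.15 for Atp6v1f. Of these, Ctsz and Atp6v1f had been called. With the pseudocount of 0.1 the direction and the call were kept for all 41 tested members. Without counts of reads, the precision that depth gives cannot be stated.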

Other observations

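The values of Naglu, Gusb, Ids, Hgsnat and Arsg led to a look at enzymes that degrade heparan sulfate, a sugar chain of cell-surface and matrix proteoglycans that is taken apart one unit at a time in the lysosome. The group was put together after its values were seen, so it gets no test. It does not cover the whole pathway. It holds 7 enzymes, of which 6 fell and 1 rose by limma's test. Ids, the iduronate sulfatase, stood at 19.6% of the control level, Arsg at 35.2%, Hgsnat at 37.5%, Gusb at 43.2%, Naglu at 44.1% and Sgsh, the sulfamidase, at 49.0%. Sgsh had 2.45 and 2.24 RPKM after knockdown, against 4.79 RPKM in the control. Idua, the iduronidase that acts after Ids, was the exception, with 6.87 and 6.78 RPKM after knockdown, against 4.80 RPKM in the control (log2 ratio 0.43, limma adjusted p = 0.0194).

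Since the columns had been quantile normalized, genes of equal rank in different libraries mostly share a value, and some members did. Cd63 in the first knockdown library and Atp6v1f in the second both had 191 RPKM, equal to 8 decimals, and Ctsb in the first knockdown library equalled Lamp1 in the control in the same way, at 269 RPKM.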
